A study of Mus musculus with 16 samples.

Results

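The trophectoderm factors described here are 9 mouse transcription factor genes, Cdx2, Elf5, Gata2, Gata3, Tfap2a, Tfap2c, Hand1, Ascl2 and Tead4, followed across 16 pluripotent stem cell lines. They were chosen by name, as factors of the trophectoderm and of trophoblast stem cells, and their probes were found through the RefSeq accession of each probe. All 9 were on the array, through 10 probes, out of 20972 genes that could be named. Messenger RNA was measured on 16 single-colour Agilent arrays, 1 for each line, with 4 lines in each of 4 groups of the mouse strain 129/Ola. The 2iSB_LIF lines, derived from embryos before implantation, were held in the ground state with 2i, SB431542 and LIF. The 2i_LIF lines had the same origin and state, with 2i and LIF. The EpiSC lines came from the epiblast of embryos of embryonic day 6.5 and were kept primed with Activin A and bFGF. The LIF_serum lines, also from embryos before implantation, were kept naive with LIF and serum. The cytokine LIF was thus in all groups but EpiSC. In the usual sense, 2i stands for a MEK inhibitor and a GSK3 inhibitor given together, and SB431542 blocks the receptor kinases of Activin, Nodal and TGF-beta. Passages ran between 17 and 28, and the sources used here do not say whether feeder cells were used.

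The trophectoderm is the outer epithelium of the blastocyst and the founder of the placental trophoblast, while the inner cell mass gives the embryo proper and the cells from which pluripotent lines are made. In mouse embryos Tead4, a DNA-binding partner of the co-activator YAP, acts in outer cells where Hippo signalling is low and switches on Cdx2 and Gata3. Cdx2 opposes Oct4 (Pou5f1), and Elf5, Tfap2c and Eomes then maintain trophoblast stem cells. Hand1 and Ascl2 act later, in giant cells and in the spongiotrophoblast. Pluripotent cells rarely make trophoblast, and in mouse embryonic stem cells the Elf5 promoter is known to carry DNA methylation that is missing from trophoblast stem cells. Tfap2c and Ascl2 are not restricted to trophoblast: Tfap2c also acts in germ cells and naive pluripotent cells, and Ascl2 in intestinal stem cells.

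Promoter sequence is shown for the genes whose low or variable signal is described first below, to show what lies just before their starts. Of the 9 genes, 6 had start sites in the RefSeq promoter table (GRCm38.p6), with 9 windows of 250 bases in all. The windows end at the base before the start site and are written 5′ to 3′ along the gene's own strand. Both strands were searched for the TEAD motif GGAATG, the GATA motif AGATAA, the AP-2 motif GCCNNNGGC, which reads the same on both strands, and the octamer ATGCAAAT bound by POU factors. Capitals mark the matches, and the motifs did not overlap in the windows shown. The Cdx2 window is chr5:147307250-147307499 on the minus strand, the Gata3 window chr2:9878601-9878850 on the minus strand, and the windows of the first and second Elf5 start chr2:103411848-103412097 and chr2:103423818-103424067 on the plus strand.
Cdx2: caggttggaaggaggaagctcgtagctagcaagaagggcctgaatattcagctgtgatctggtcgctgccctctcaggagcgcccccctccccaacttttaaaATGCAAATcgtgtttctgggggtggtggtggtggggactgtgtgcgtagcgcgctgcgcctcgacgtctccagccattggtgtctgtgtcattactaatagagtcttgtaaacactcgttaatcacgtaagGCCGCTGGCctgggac
Gata3: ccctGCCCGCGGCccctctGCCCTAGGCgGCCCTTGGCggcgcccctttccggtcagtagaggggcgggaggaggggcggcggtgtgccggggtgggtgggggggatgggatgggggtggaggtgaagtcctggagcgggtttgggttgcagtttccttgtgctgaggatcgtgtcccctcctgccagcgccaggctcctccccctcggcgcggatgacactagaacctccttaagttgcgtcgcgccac
Elf5, first start: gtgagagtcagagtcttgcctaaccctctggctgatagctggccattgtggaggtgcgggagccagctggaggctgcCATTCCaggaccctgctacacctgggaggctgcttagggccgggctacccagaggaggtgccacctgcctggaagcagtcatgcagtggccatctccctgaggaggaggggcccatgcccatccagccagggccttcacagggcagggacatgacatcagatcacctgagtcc
Elf5, second start: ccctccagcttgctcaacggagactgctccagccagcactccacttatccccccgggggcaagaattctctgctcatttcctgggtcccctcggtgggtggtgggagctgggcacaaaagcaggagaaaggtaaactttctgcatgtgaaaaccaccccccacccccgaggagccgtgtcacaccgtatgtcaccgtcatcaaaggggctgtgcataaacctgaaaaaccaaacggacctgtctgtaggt

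The Cdx2 window held 1 octamer and 1 AP-2 match, the Gata3 window 3 AP-2 matches, and the first Elf5 window 1 TEAD match, while the second Elf5 window held none of these motifs. Over all 32851 windows of this length the octamer was found in 1.60%, the AP-2 motif in 13.7%, the TEAD motif in 12.6% and the GATA motif in 9.99%. The windows also differed in CG dinucleotides, the bases at which mammalian DNA is methylated. The first Elf5 window had 2 of them and the second 8, against 13 for Cdx2 and 19 for Gata3, with a median of 6 over all windows. A match is a description of the letters and no evidence of binding.

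Levels are given as log2 of the scanner's processed signal divided by the 75th percentile of the array, so that 0 is the 75th percentile itself, and no level is set against that of another gene. That percentile lay between 646 and 1039 intensity units, and 51.5% to 63.9% of probes were well above background by the scanner's own test. The lowest signal that passed was 11.8 to 14.6 units on EpiSC arrays and 19.5 to 32.0 on the others. Dim genes thus passed more easily in EpiSC, and counts of arrays above background are not equally strict between groups. All 6 markers of pluripotent cells, among them Pou5f1 and Sox2, were well above background on every array. The naive markers, with a summed signal of 286 to 436 times the 75th percentile in 2iSB_LIF and 282 to 400 in 2i_LIF, summed to 15.5 to 19.8 in EpiSC and 148 to 288 in LIF_serum. The arrays lay on 2 slides of 8, with all EpiSC arrays on the second, and the slide is not independent of the groups. LIF_serum arrays 1 and 2, on the first slide, are described by the code LS, and arrays 3 and 4, on the second, by LSFF. The meaning of the codes is not given, code and slide cannot be told apart, and results against LIF_serum that depend on the pair are given with each pair alone. In such bulk RNA, fewer cells of a type and less RNA per cell cannot be told apart.

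Tead4, the most upstream of the factors, was well above background on all 16 arrays and had its lowest level in EpiSC. On arrays 1 to 4 it lay at −0.67, −0.50, 0.17 and −0.22 in 2iSB_LIF, at −0.51, 0.27, 0.62 and 0.35 in 2i_LIF, at −2.40, −2.40, −2.46 and −2.67 in EpiSC, and at −0.85, −1.82, −1.99 and −2.03 in LIF_serum. Every ground-state array was above every LIF_serum array, and every LIF_serum array above every EpiSC array. The group means ± SD (n = 4 each) were −0.31 ± 0.37 in 2iSB_LIF, 0.18 ± 0.49 in 2i_LIF, −2.48 ± 0.13 in EpiSC and −1.67 ± 0.55 in LIF_serum. The step between EpiSC and LIF_serum was below the 2-fold minimum used here, and 2iSB_LIF and 2i_LIF overlapped.

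Cdx2, the homeodomain factor that defines the trophectoderm, was measured only in the LIF_serum lines coded LS. Its signal there was 44.4 and 95.1 intensity units, or −3.96 and −2.99 on the log2 scale. On LIF_serum arrays 3 and 4 the probe gave −5.50 and −6.96 and was not well above background. It was also not well above background on any of the other 12 arrays, where the readings lay between −7.73 and −6.00 in 2iSB_LIF, −7.54 and −7.02 in 2i_LIF, and −8.15 and −6.65 in EpiSC. Because no group had the gene above background on all 4 of its arrays, Cdx2 was not tested, and the readings below background have no order among themselves.

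Gata3, a zinc-finger factor that acts beside Cdx2 in outer cells, was most even in EpiSC and scattered in the other groups. It lay at −4.63, −2.31, −2.04 and −2.15 in 2iSB_LIF, at −2.92, −1.75, −4.87 and −4.54 in 2i_LIF, at −0.94, −1.31, −1.33 and −1.10 in EpiSC, and at −3.30, −2.52, −0.94 and −0.66 in LIF_serum. The last pair of 2i_LIF readings was not well above background. The SD over 4 arrays was 1.24 in 2iSB_LIF, 1.46 in 2i_LIF, 0.19 in EpiSC and 1.27 in LIF_serum, around means of −2.78, −3.52, −1.17 and −1.86 in the same order of groups. Every EpiSC array was above every ground-state array, while the LSFF-coded LIF_serum arrays reached or passed the EpiSC readings and the LS-coded ones did not.

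**Figure D1:**
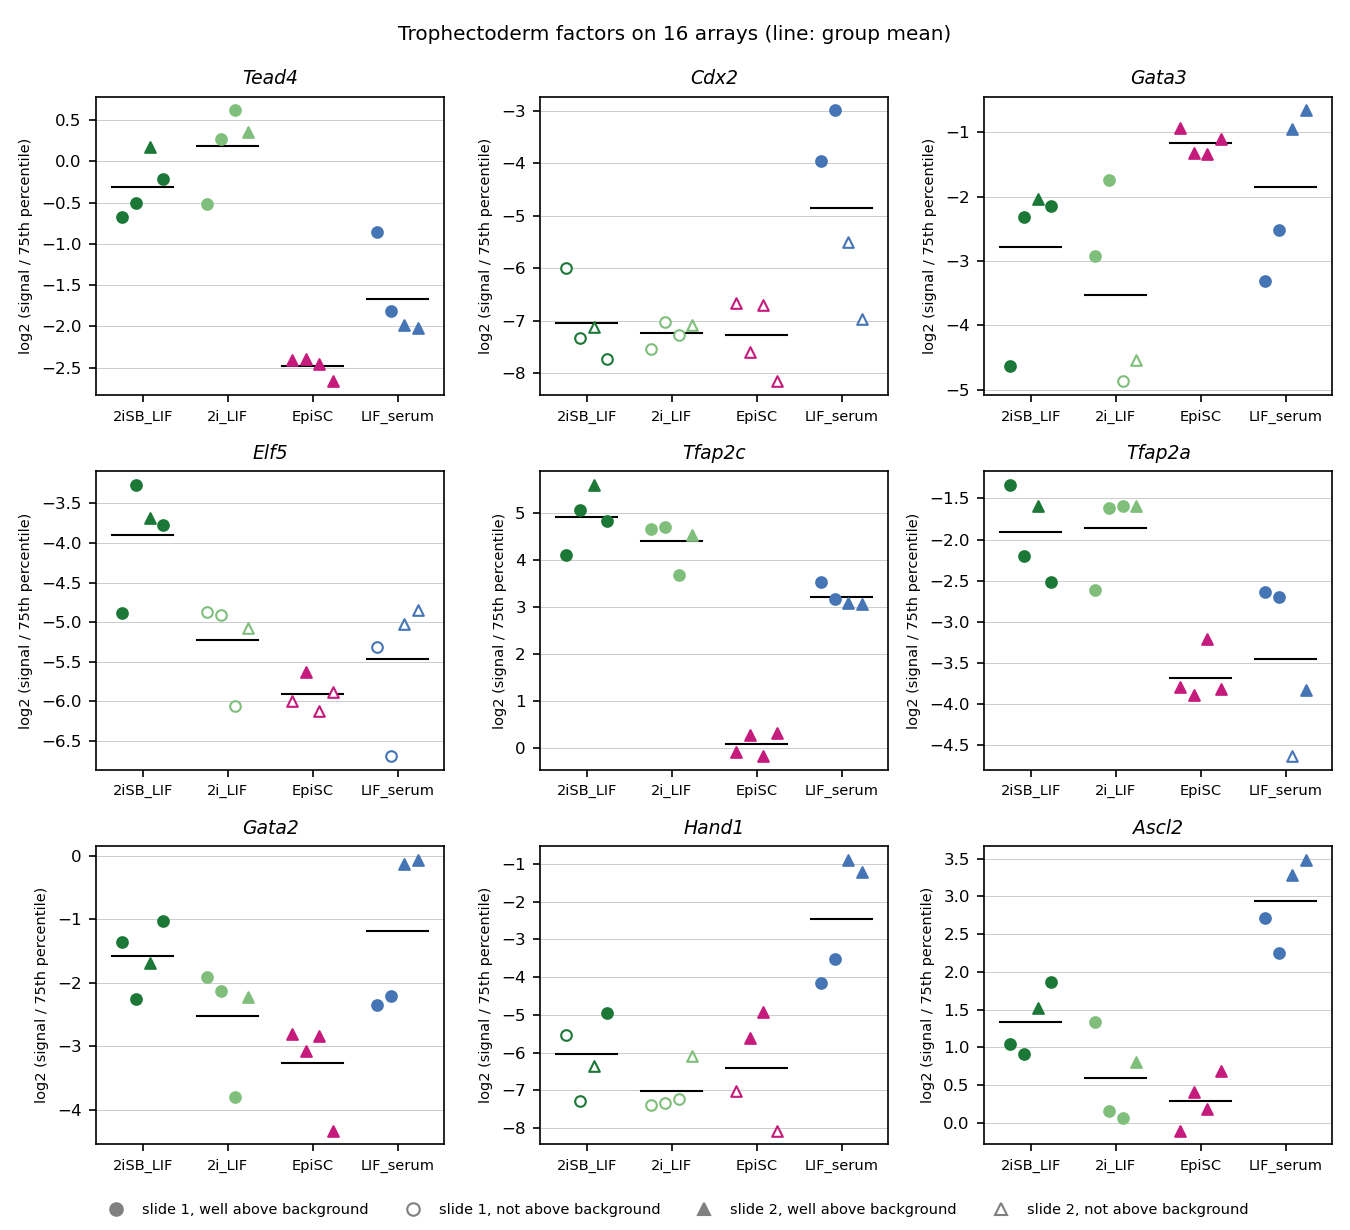
Level of each of the 9 genes on each array, as log2 of the signal over the array's 75th percentile, with groups in the order 2iSB_LIF, 2i_LIF, EpiSC and LIF_serum on the horizontal axis. Circles are slide 1, triangles slide 2, open symbols readings not well above background, and lines the means of 4 arrays. Tfap2c stands near 0 in EpiSC and above 3 on all other arrays, and Cdx2 has filled symbols on only 2 LIF_serum arrays.

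Elf5, an ETS factor that stabilises the trophoblast stem cell state, was above background on all 4 arrays only in 2iSB_LIF. There it lay at −4.88, −3.27, −3.69 and −3.77 (mean −3.90 ± 0.69). It was not well above background on any 2i_LIF array, at −4.88, −4.91, −6.05 and −5.07, nor on any LIF_serum array, at −5.31, −6.69, −5.03 and −4.84. EpiSC gave −6.00, −5.63, −6.12 and −5.88, with array 2 well above background. That array passed at 19.1 intensity units, while 2i_LIF array 2 did not pass at 34.7. Thus 2iSB_LIF array 1 overlapped the readings of 2i_LIF and LIF_serum but not those of EpiSC, and the other 3 arrays lay above all of them. The signal stayed small, between 34.3 and 74.5 intensity units on the 2iSB_LIF arrays.

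Tfap2c, the AP-2 factor of trophoblast stem cells, germ cells and naive pluripotent cells, had the largest differences between groups that were measured on all arrays. It lay at 4.11, 5.07, 5.60 and 4.84 in 2iSB_LIF and at 4.67, 4.71, 3.69 and 4.54 in 2i_LIF. In EpiSC it lay at −0.10, 0.27, −0.18 and 0.30, and in LIF_serum at 3.53, 3.18, 3.08 and 3.05. The means were 4.91 ± 0.62 in 2iSB_LIF, 4.40 ± 0.48 in 2i_LIF, 0.08 ± 0.25 in EpiSC and 3.21 ± 0.22 in LIF_serum. Only the ground-state groups overlapped among these.

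Tfap2a, a related AP-2 factor that also acts in surface ectoderm and neural crest, was read by 2 probes. The probe for another transcript was not well above background on any array and is not used further. The other gave −1.34, −2.20, −1.60 and −2.51 in 2iSB_LIF and −2.61, −1.62, −1.59 and −1.60 in 2i_LIF. It gave −3.79, −3.89, −3.21 and −3.82 in EpiSC and −2.63, −2.70, −4.63 and −3.83 in LIF_serum, where array 3 was not well above background. Every ground-state array was above every EpiSC and LIF_serum array, though the lowest 2i_LIF array lay only just above the highest LIF_serum array.

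Gata2, a zinc-finger factor of trophoblast and blood, was well above background on all 16 arrays. It lay at −1.35, −2.26, −1.69 and −1.02 in 2iSB_LIF, at −1.92, −2.13, −3.80 and −2.23 in 2i_LIF, at −2.81, −3.07, −2.84 and −4.33 in EpiSC, and at −2.35, −2.20, −0.13 and −0.06 in LIF_serum. The LSFF-coded arrays were the highest of all 16, and the LS-coded arrays lay among the ground-state arrays. Means were −1.58 ± 0.53 in 2iSB_LIF, −2.52 ± 0.86 in 2i_LIF, −3.26 ± 0.72 in EpiSC and −1.18 ± 1.26 in LIF_serum.

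Hand1, a basic helix-loop-helix factor needed for trophoblast giant cells, was above background on all arrays only in LIF_serum, at −4.16, −3.53, −0.88 and −1.22. In 2iSB_LIF it gave −5.53, −7.29, −6.34 and −4.95, with array 4 well above background. In 2i_LIF it gave −7.39, −7.33, −7.22 and −6.08, all not well above background. EpiSC gave −7.01, −5.62, −4.93 and −8.07, with arrays 2 and 3 well above background. All LIF_serum arrays stood above all others, and the LSFF pair stood above the LS pair.

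Ascl2, the imprinted helix-loop-helix factor of the spongiotrophoblast, was well above background on all arrays and highest in LIF_serum. It lay at 1.05, 0.91, 1.52 and 1.87 in 2iSB_LIF, at 1.34, 0.16, 0.07 and 0.81 in 2i_LIF, at −0.10, 0.41, 0.18 and 0.68 in EpiSC, and at 2.72, 2.26, 3.29 and 3.49 in LIF_serum. Means were 1.34 ± 0.44 in 2iSB_LIF, 0.59 ± 0.60 in 2i_LIF, 0.29 ± 0.33 in EpiSC and 2.94 ± 0.56 in LIF_serum. No other group reached the LIF_serum arrays, 2i_LIF overlapped both its neighbours, and 2iSB_LIF lay wholly above EpiSC.

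Of the 9 genes, 8 passed the filter on dim probes, which asked that some group have the gene well above background on each of its 4 arrays, and were tested among 15510 genes. Elf5 passed only through 2iSB_LIF and Hand1 only through LIF_serum. The filter itself thus favoured the direction in which each differed, and no support is drawn from that direction. Differences are log2, first group minus second, from a limma fit of all 16 arrays, with the standard error (SE) and a p-value adjusted over all 15510 genes. Calls needed a 2-fold or larger difference with an adjusted p below 0.05. Each array is a different line, so p-values rest on the spread between lines, which also holds the slide and code differences.

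The comparison of EpiSC with LIF_serum asks how primed lines differ from naive lines. In EpiSC Tfap2c, Ascl2, Gata2 and Hand1 were lower, and none of the 8 genes was higher. Tfap2c fell by 3.13 (SE 0.29, adjusted p = 5.1e-07), or 8.78-fold, and Ascl2 by 2.64 (SE 0.33, adjusted p = 1.1e-05), or 6.25-fold. Gata2 was at −2.08 (SE 0.58, adjusted p = 0.0072) and Hand1 at −3.96 (SE 0.80, adjusted p = 0.00073). Hand1 was well above background on 2 of 4 EpiSC arrays, and with dim readings held at the floor it was at −3.07. The background was high: 33.6% of all tested genes were called, and 15.6% of all tested genes were called lower. The 4 of 8 is thus to be read against a large share of the transcriptome, and it includes Hand1, whose direction the filter favoured. Tead4 had a difference of −0.81 (SE 0.28, adjusted p = 0.025), under the 2-fold minimum, and Gata3 of 0.69 (SE 0.74, adjusted p = 0.45). The median over the 8 tested genes was −1.44, against 0.07 over all genes. For 5 of the 8 genes, Hand1 among them, every EpiSC array lay below every LIF_serum array, where 58.8% of all genes had groups without overlap in either direction. Centring arrays on their medians moved the median of all genes to 0.61 and the share of calls that are higher to 75.9%, against 53.4% with the scaling used. Gata2 was no longer called with that centring (−1.54, adjusted p = 0.052).

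Against LIF_serum, the ground-state lines had higher Tfap2c, Tfap2a and Tead4, and lower Hand1 and Ascl2, under both media. In 2i_LIF 3 genes rose and 2 fell, where 6.26% and 12.1% of all genes did, or 18.3% together. In 2iSB_LIF 4 rose and 2 fell, where 6.82% and 13.3% did, or 20.1% together. These counts include Hand1 in both groups and Elf5 in 2iSB_LIF, whose directions the filter favoured. Arrays did not overlap for 5 of the 8 genes, Hand1 among them, in each comparison, where 29.6% of all genes did not in 2iSB_LIF and 27.2% in 2i_LIF. Within the first slide none of the 6 calls in 2iSB_LIF was kept, and with passage number as a covariate Tfap2c alone was kept (1.43, adjusted p = 0.019), while Tead4, Tfap2a, Elf5, Hand1 and Ascl2 were at 1.02, 0.99, 1.43, −2.81 and −0.99 with adjusted p-values between 0.067 and 0.21. In 2i_LIF the first slide kept the calls of Hand1 and Ascl2. These 2 comparisons and the previous one share the LIF_serum arrays. Tfap2c rose by 1.70 (SE 0.29, adjusted p = 0.00049) in 2iSB_LIF and by 1.19 (SE 0.29, adjusted p = 0.0063) in 2i_LIF. Tead4 rose by 1.36 (SE 0.28, adjusted p = 0.0021) and by 1.85 (SE 0.28, adjusted p = 0.00025), in that order of media. Tfap2a rose by 1.54 (SE 0.41, adjusted p = 0.010) in 2iSB_LIF and by 1.59 (SE 0.41, adjusted p = 0.0092) in 2i_LIF. With normexp, another background correction, Tfap2a was at 0.86 and 0.91 and no longer past 2-fold.

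Ascl2 fell by 1.60 (SE 0.33, adjusted p = 0.0020) in 2iSB_LIF and by 2.34 (SE 0.33, adjusted p = 0.00013) in 2i_LIF. Hand1 was at −3.58 (SE 0.80, adjusted p = 0.0034) in 2iSB_LIF, where 1 of 4 arrays was well above background, and at −2.61 with dim readings held at the background floor. In 2i_LIF, where no array was well above background, its signal was 6.40-fold lower by a bound (adjusted p of the fitted difference = 0.00069). The bound was taken against the lowest signal well above background on each dim array, or the gene's own signal where higher. Such bounds rest on group means and carry no sampling error, so smaller differences are not excluded by them. By the same kind of bound Elf5 was 1.84-fold higher in 2iSB_LIF, though its arrays overlapped those of LIF_serum. Its fitted difference was 1.57 (SE 0.41, adjusted p = 0.0087). Elf5 was no longer called with normexp (0.16, adjusted p = 0.55) and in the table normalized by the authors (0.67, adjusted p = 0.081). Gata2 and Gata3 were not called, at −0.40 (SE 0.58) and −0.93 (SE 0.74) in 2iSB_LIF and −1.33 (SE 0.58) and −1.67 (SE 0.74) in 2i_LIF.

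Against EpiSC, Tfap2c, Tead4 and Tfap2a were higher in both ground-state groups. Tfap2c was 28.5-fold higher in 2iSB_LIF (4.83, SE 0.29, adjusted p = 3.1e-09) and rose by 4.33 (SE 0.29, adjusted p = 9.5e-09) in 2i_LIF. Tead4 rose by 2.18 (SE 0.28, adjusted p = 1.1e-05) in 2iSB_LIF and by 2.67 (SE 0.28, adjusted p = 1.4e-06) in 2i_LIF, and Tfap2a by 1.77 (SE 0.41, adjusted p = 0.0020) and 1.82 (SE 0.41, adjusted p = 0.0016). In 2iSB_LIF 6 of 8 genes rose and none fell, where 16.2% and 20.1% of all genes did (36.3% called). The other 3 of the 6 were Elf5 (2.01, SE 0.41, adjusted p = 0.00068), Gata2 (1.68, SE 0.58, adjusted p = 0.023) and Ascl2 (1.04, SE 0.33, adjusted p = 0.015). The direction of Elf5 was favoured by the filter. In 2i_LIF 3 rose and 1 fell, where 16.8% and 20.5% of all genes did (37.4% called). The gene that fell was Gata3, at −2.35 (SE 0.74, adjusted p = 0.015), which no longer passed when slide was fitted as a block (−1.80, adjusted p = 0.11) and without 2i_LIF array 3 (−1.90, adjusted p = 0.052). Gata3 in 2iSB_LIF was at −1.61 (SE 0.74, adjusted p = 0.079). Arrays did not overlap for 7 of the 8 genes in 2iSB_LIF, Elf5 among them, and 4 in 2i_LIF, where 54.2% and 55.2% of all genes did not. The calls of Gata2 and Ascl2 were lost without 2iSB_LIF array 4 (1.49 and 0.87). That of Gata2 was also lost without EpiSC array 4 (1.32), and that of Ascl2 also without 2iSB_LIF array 3 (0.98) or EpiSC array 1 (0.91). Elf5 was no longer called with normexp (0.48) or in the authors' table (0.92). Gata2 was also not called with quantile normalization, in the authors' table (1.21) or within the second slide (1.57), Ascl2 with normexp (0.92), or Tfap2a in 2iSB_LIF with passage number as a covariate (1.19, adjusted p = 0.081). Centring on medians ended the calls of Gata2 (1.16) and Ascl2 (0.52), moved the median of all genes to −0.56 in 2iSB_LIF and −0.58 in 2i_LIF, and put 25.5% and 25.2% of calls as higher, against 44.6% and 45.1% with the scaling used. No EpiSC array lies on the first slide, so these comparisons rest on the second slide or on a fit across both.

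Adding SB431542 to 2i left none of the 8 genes called, against 0.0838% of all genes (13 of 15510, with 0.0129% higher and 0.0709% lower). No gene of the 8 had groups that did not overlap, where 2.15% of all genes did. At an unadjusted p under 0.05 there were 2, Elf5 and Ascl2. Elf5 was at 1.33 (SE 0.41, unadjusted p = 0.00541, limma adjusted p = 0.46), in the direction favoured by the filter and with arrays that overlapped. The bound taken from its mean in 2iSB_LIF was 2.06-fold, but it carries no sampling error and the difference was not called. For Tfap2c, Tead4 and Tfap2a the 95% intervals of the difference ran between −0.11 and 1.12, between −1.09 and 0.12, and between −0.94 and 0.82, which leaves changes of about 2-fold within the intervals.

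**Figure D2:**
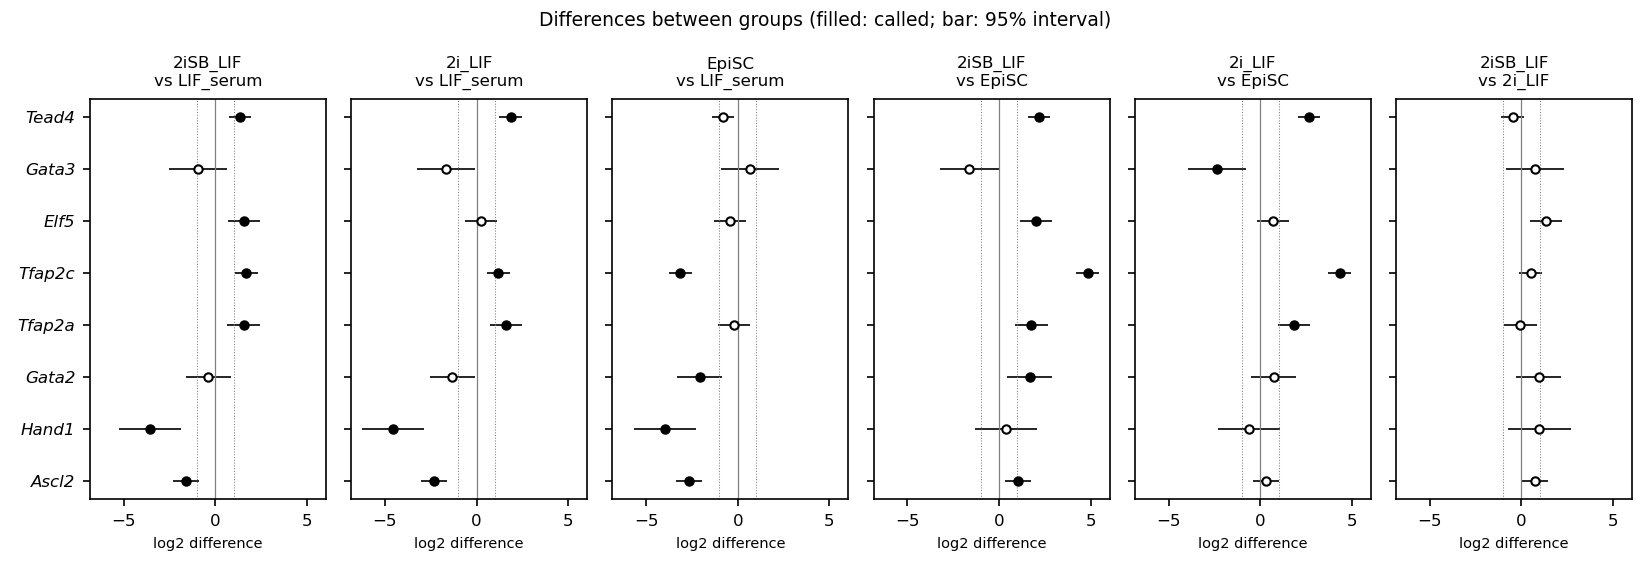
Log2 difference of the 8 tested genes in each of the 6 comparisons, with the 95% interval of the limma fit as a bar and filled symbols for genes called. Dotted lines mark 2-fold, and positive values are higher in the group named first. Tfap2c lies beyond 4 in both ground-state groups against EpiSC, and no symbol is filled between 2iSB_LIF and 2i_LIF.

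The LIF_serum group had the largest SD of the 4 groups for Hand1, Gata2, Tfap2a and Tead4, and for Cdx2 and Elf5, which were partly or wholly below background there. For Gata3 and Ascl2 the SD was larger in 2i_LIF, and for Tfap2c it was smallest in LIF_serum. The LIF_serum arrays divided by code. LSFF minus LS, the log2 level differed by 2.79 for Hand1, 2.19 for Gata2, 2.11 for Gata3 and 0.90 for Ascl2. It differed by −1.56 for Tfap2a, −0.67 for Tead4 and −0.29 for Tfap2c. The readings of Elf5 differed by 1.06, but none of them was well above background on a LIF_serum array. Those of Cdx2 differed by −2.76, with neither LSFF reading well above background. No p is given, since there are 2 arrays a code and the code was not a group of the design. The codes did not overlap for any of the 6 members well above background on all 4 LIF_serum arrays, but this held for 76.7% of all such genes (10566 of 13780). Among the ground-state lines, whose slides hold 6 and 2 arrays, the mean of Hand1 was −6.21 on the second slide and −6.62 on the first. Most of these Hand1 readings were not well above background. In the same order of slides, the means were −1.96 and −2.08 for Gata2, −3.29 and −3.11 for Gata3 and −1.60 and −1.98 for Tfap2a. They were 5.07 and 4.52 for Tfap2c, 1.17 and 0.90 for Ascl2 and 0.26 and −0.17 for Tead4. The part of the slide was not tested. The fibroblast markers, 10 genes, also differed between the codes, with a summed signal of 11.3 to 12.4 times the 75th percentile on LSFF arrays and 71.2 to 88.0 on LS arrays. The primitive endoderm markers summed to 326 to 329 on LSFF and 185 to 198 on LS arrays, and the primed epiblast markers to 177 to 195 and 104 to 123. Lower on LSFF arrays were the naive markers, at 148 to 162 against 261 to 288, and the trophoblast markers, at 64.5 to 72.8 against 91.0 to 111. The other marker lists differed less. Such sums weigh the brightest genes most and do not show that each marker of a list differed. In LIF_serum Sparc lay between 7.34 and 8.03 in the primitive endoderm list, and Gcm1 between 5.93 and 6.74 in the trophoblast list. The part of these marker lists in the values of the 9 genes was not tested.

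Results against LIF_serum therefore depended on the pair of arrays used for some genes. With LSFF arrays alone, Gata2 was called lower in all 3 comparisons, at −1.49 in 2iSB_LIF, −2.42 in 2i_LIF and −3.17 in EpiSC. With LS arrays alone it was called in none, at 0.70, −0.24 and −0.98 in that order. Gata3 in EpiSC was at −0.37 with LSFF arrays and 1.74 with LS arrays, neither called, and in 2i_LIF it was called lower with LSFF arrays (−2.72, adjusted p = 0.022) and not with LS arrays (−0.61). Tead4 in EpiSC was called lower with LS arrays alone (−1.15), and Elf5 in 2iSB_LIF was at 1.04, not called, with LSFF arrays alone. Tfap2a rose by 2.32 in 2iSB_LIF and 2.38 in 2i_LIF against LSFF arrays, but was at 0.76 and 0.81, not called, against LS arrays. Hand1, whose readings outside LIF_serum were mostly below background, was called lower in all 3 comparisons against LSFF arrays, and in 2i_LIF and EpiSC but not in 2iSB_LIF (adjusted p = 0.068) against LS arrays. Tfap2c in EpiSC, by contrast, was at −2.99 and −3.28, and Ascl2 was called lower in all 3 comparisons with either pair. Tfap2c in 2i_LIF was at 1.05 against LS arrays, with an adjusted p of 0.069.

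**Figure D3:**
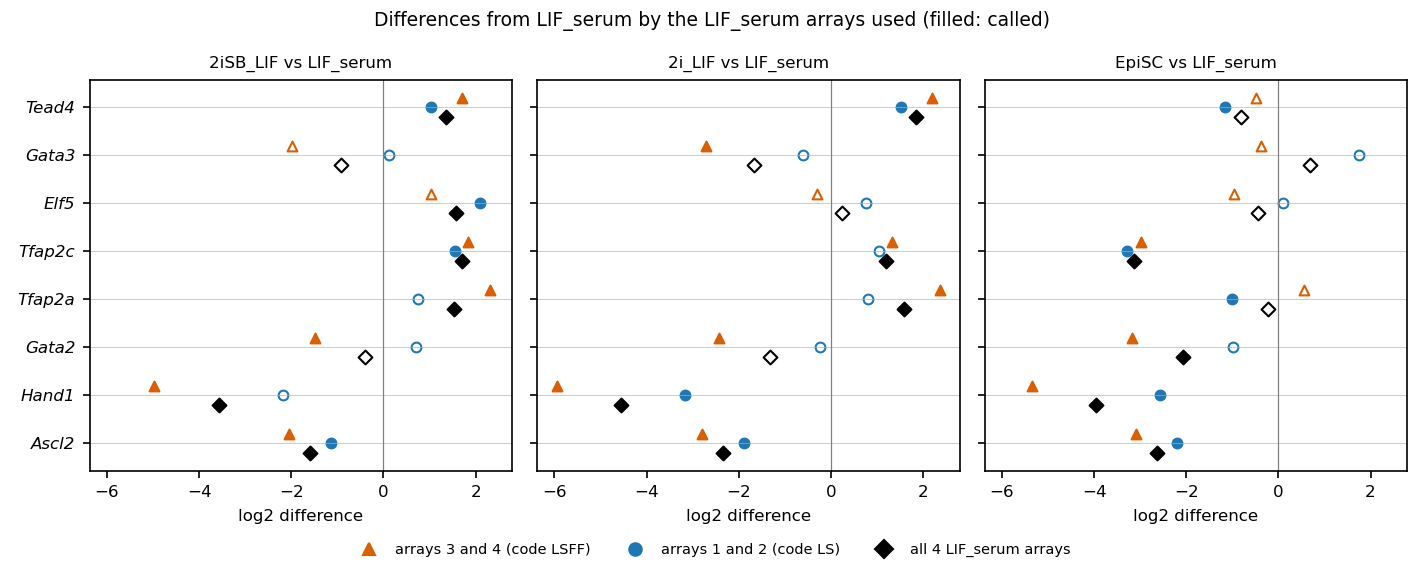
Log2 differences of the 8 tested genes from LIF_serum with only LIF_serum arrays 3 and 4 (triangles), only arrays 1 and 2 (circles) or all 4 arrays (diamonds), filled where called. The symbols of Tfap2c lie closest together in all 3 panels. The pairs lie 0.67 log2 units apart for Tead4 and 0.90 for Ascl2, while the symbols of Hand1, Gata2 and Gata3 spread over about 2 or more log2 units.

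The other genes of each family were taken as a list of 16 paralogs, of which 14 were tested. Cdx4 and Tfap2d were not above background on all arrays of any group. Between EpiSC and LIF_serum 4 were called higher and 4 lower, where 18.0% and 15.6% of all genes were. Tfap2b and Hand2 passed the filter only through EpiSC, Tfap2e only through LIF_serum and Ehf only through 2i_LIF, so their directions were favoured by it. Tead3 rose by 2.84 (SE 0.30, adjusted p = 2e-06) and Tead2 by 1.23 (SE 0.30, adjusted p = 0.0029) in EpiSC, where Tead4 had its lowest level. With LSFF arrays alone Tead2 was at 0.80 and not called. By the bound used above for dim readings, Tfap2b was 1.33-fold and Hand2 1.15-fold higher in EpiSC, both under 2-fold. Cdx1, a relative of Cdx2 and a Wnt target, was at −4.31 (SE 0.55, adjusted p = 1.3e-05), Elf3, an epithelial ETS factor close to Elf5, at −4.15 (SE 0.28, adjusted p = 2e-08) and Gata1, the erythroid GATA factor, at −5.31 (SE 0.59, adjusted p = 3.3e-06). Gata1 was well above background on 1 of 4 EpiSC arrays, and at −4.99 with dim readings held at the floor. By the same kind of bound Tfap2e was 5.24-fold lower in EpiSC.

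Against LIF_serum, Elf3 and Ehf were called higher and Cdx1 and Tfap2e lower in 2iSB_LIF, where 6.82% and 13.3% of all genes were, and Ehf higher and Tfap2e lower in 2i_LIF, where 6.26% and 12.1% were. Ehf, another epithelial ETS factor, was 4.38-fold higher in 2i_LIF by the bound for dim readings. In 2iSB_LIF it was well above background on 3 of 4 arrays, and with dim readings held at the floor it was at 0.67 and not called. Cdx1 was at −1.51 (SE 0.55, adjusted p = 0.046) in 2iSB_LIF, but at −2.77 against LS arrays alone and −0.25, not called, against LSFF arrays alone. Elf3 in 2iSB_LIF was at 1.23 (SE 0.28, adjusted p = 0.0038), with 1.67 against LS arrays and 0.80, not called, against LSFF arrays. Tead1 and Gata5 were well above background on every array and were called in no comparison. Between 2iSB_LIF and 2i_LIF no paralog was called.

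**Figure D4:**
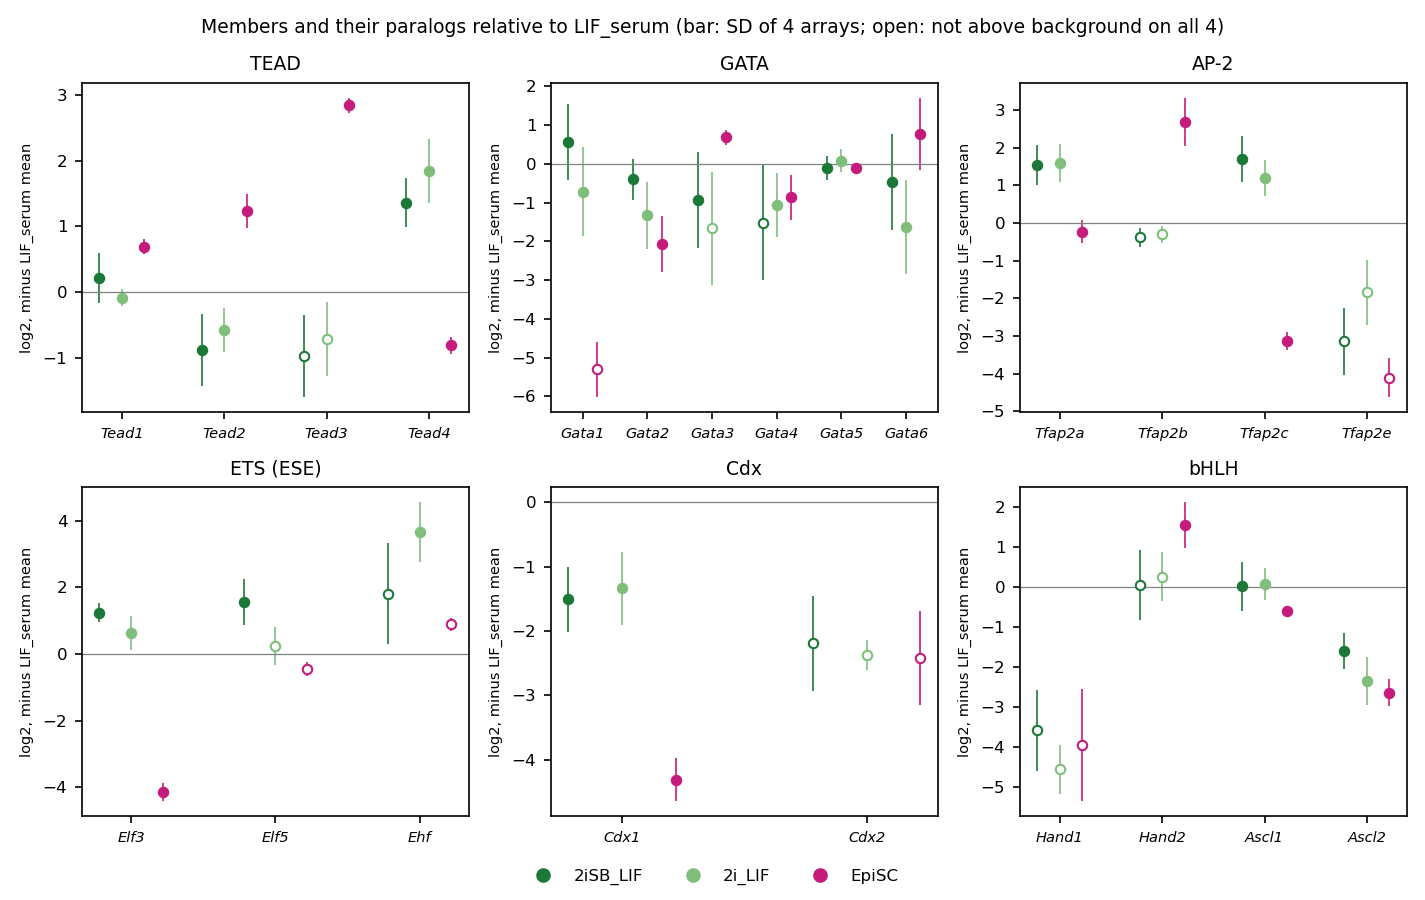
Mean log2 level of each gene minus its own LIF_serum mean, by family, for 2iSB_LIF, 2i_LIF and EpiSC, with the SD of 4 arrays as a bar and open symbols where the group was not above background on all 4 arrays. Tead2 and Tead3 lie above 0 in EpiSC where Tead4 lies below, and Cdx1, Elf3 and Gata1 lie far below 0 there.

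Around the members, a list of 13 partners of the trophoblast stem cell state was measured, all of them tested. In EpiSC 2 rose and 5 fell against LIF_serum, where 18.0% and 15.6% of all genes did. Tfap2b was among those that rose, in a direction favoured by the filter. With dim readings held at the floor 1 rose and 5 fell. Eomes, the T-box partner of Cdx2 and Elf5 that is also a primitive streak gene, rose by 2.18 (SE 0.32, adjusted p = 5e-05), and Bmp4, a secreted factor of the epiblast and trophectoderm, fell by 2.07 (SE 0.46, adjusted p = 0.0015). Sox2 and Esrrb, which serve both trophoblast and pluripotent stem cells, fell, as did Zfp42 and Tet1. In 2iSB_LIF against LIF_serum, Sox21 and Eomes rose and Id2 fell, with Eomes at 1.02 (SE 0.32, adjusted p = 0.023), or 0.74 and not called against LS arrays alone. In 2i_LIF Sox21 rose and Id2, Bmp4 and Msx2 fell, of which Bmp4 was not called against LSFF arrays alone (−0.92) nor Msx2 against LS arrays alone (−0.93). The shares of all genes that rose and fell were 6.82% and 13.3% in 2iSB_LIF and 6.26% and 12.1% in 2i_LIF. Id2, an inhibitor of helix-loop-helix factors and a BMP target, was at −4.73 (SE 0.59, adjusted p = 4.3e-05) in 2iSB_LIF and −4.09 (SE 0.59, adjusted p = 0.00016) in 2i_LIF. Its differences were −6.10 and −5.45 against LSFF arrays alone and −3.37 and −2.73 against LS arrays alone.

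The Hippo and Notch inputs to Cdx2, 16 genes, had 8 members higher and none lower in EpiSC against LIF_serum, where 18.0% of all genes rose and 15.6% fell. They were the kinases Lats1 (1.20, SE 0.16) and Lats2 (2.97, SE 0.70), the adaptors Sav1 (1.09, SE 0.14) and Mob1b (1.33, SE 0.29), the junctional YAP binder Amot (2.55, SE 0.61), the co-activator Wwtr1 (1.30, SE 0.23), the TEAD cofactor Vgll4 (3.33, SE 0.25) and the receptor Notch2 (1.63, SE 0.15), with adjusted p-values between 6.7e-07 and 0.0028. Against LSFF arrays alone 6 were called, without Lats1 (0.97) and Wwtr1 (0.86). Yap1 was not called. Many of these genes are also made by fibroblasts, whose 10 markers were all well above background on every EpiSC array and summed to 147 to 223 times the 75th percentile there, against 11.3 to 88.0 in LIF_serum. In the ground-state groups the sum was 1.46 to 1.89 in 2iSB_LIF and 1.70 to 2.18 in 2i_LIF. There Amot was at −2.25 (SE 0.61) and −2.94 (SE 0.61) and Vgll4 at −1.21 (SE 0.25) and −1.18 (SE 0.25) against LIF_serum, and Notch1 rose by 1.55 (SE 0.43, adjusted p = 0.012) in 2iSB_LIF. Against LS arrays alone Amot (−1.61) and Notch1 (0.76) were not called in 2iSB_LIF. The part of fibroblast RNA in these differences was not tested.

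Of 16 genes of the trophectoderm epithelium, 7 fell and 1 rose in 2iSB_LIF against LIF_serum, where 13.3% and 6.82% of all genes did, and 8 fell and 1 rose in 2i_LIF, where 12.1% and 6.26% did. Against LS arrays alone 5 fell and 4 rose in each ground-state group, and against LSFF arrays alone 9 fell in each, with 1 that rose in 2iSB_LIF and none in 2i_LIF. Claudins, keratins and the desmosomal Dsc2 made up the falls that both media shared. Cldn6 was at −4.40 (SE 0.73) in 2iSB_LIF and −4.37 (SE 0.73) in 2i_LIF, and Krt18 at −5.09 (SE 0.59) and −4.93 (SE 0.59). The gene that rose was Aqp3, a water channel of the blastocyst wall, by 2.42 (SE 0.41, adjusted p = 0.00045) in 2iSB_LIF and 1.22 (SE 0.41, adjusted p = 0.034) in 2i_LIF, the second not called against LSFF arrays alone (0.68). In EpiSC Aqp3 was at −6.02 (SE 0.41), Fabp3 at −3.39 (SE 0.30) and Atp1b1, a sodium pump subunit needed for the blastocoel, at −1.95 (SE 0.19), among 5 that fell and 3 that rose against LIF_serum, where 15.6% and 18.0% of all genes did. Against LSFF arrays alone 7 fell and 1 rose, and against LS arrays alone 4 fell and 5 rose. The fibroblast sums given above moved between the same groups, and their part here and in the next list was not tested.

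Of 26 later trophoblast and placental genes, 20 were tested. Tpbpa, Syna and Ctsq were not above background on all arrays of any group, and Prl2c2, Prl2c3 and Rhox4b had no named probe. In each of the 3 comparisons with LIF_serum 9 fell and 1 rose, where 13.3% and 6.82% of all genes did in 2iSB_LIF, 12.1% and 6.26% in 2i_LIF, and 15.6% and 18.0% in EpiSC. The gene that rose in EpiSC passed the filter only through that group, so its direction was favoured by the filter. With dim readings held at the floor 8 fell in each ground-state group. Against LS arrays alone 6 fell in each ground-state group, and 10 fell and 3 rose in EpiSC. Those lower in both ground-state groups included the imprinted growth regulators Phlda2, at −2.21 (SE 0.52) in 2iSB_LIF and −4.79 (SE 0.52) in 2i_LIF, Peg10, at −3.95 (SE 0.74) and −4.41 (SE 0.74), and Cdkn1c, at −2.36 (SE 0.72) and −2.98 (SE 0.72), which was not called in either group against LS arrays alone (adjusted p = 0.13 and 0.063). The homeobox genes Rhox6 and Rhox9, near-identical in part to other members of their family, were well above background on 1 of 4 EpiSC arrays, and with dim readings held at the floor they were at −8.12 and −8.62 there. Of 7 markers of trophoblast cells, 5 or 6 were well above background on each array and Tpbpa on none. Their sum, mostly from Gcm1, was 82.7 to 201 in 2iSB_LIF, 83.0 to 106 in 2i_LIF, 71.5 to 78.4 in EpiSC and 64.5 to 111 in LIF_serum. Gcm1 was bright in every group, with means of 7.05, 6.50, 6.15 and 6.31 in that order. Whether its probe reads that gene alone was not tested, so the sum is not taken as a measure of trophoblast RNA.

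The genes listed as inner cell mass counterparts of the trophectoderm factors, 8 in the list, were all tested. In EpiSC Nanog, Sox2, Prdm14 and Dppa3 fell against LIF_serum and none rose, where 15.6% and 18.0% of all genes did. Against LSFF arrays alone Nanog was at −0.78 and not called. Prdm14, a factor that keeps ground-state cells from differentiating, was well above background on 1 of 4 EpiSC arrays, and with dim readings held at the floor it was at −7.29 (adjusted p = 1.9e-12). Against LIF_serum Nanog rose by 1.05 (SE 0.24, adjusted p = 0.0038) in 2iSB_LIF and 1.20 (SE 0.24, adjusted p = 0.0017) in 2i_LIF, and Prdm14 by 2.36 (SE 0.33) and 2.46 (SE 0.33). Klf5, which acts in both trophectoderm and inner cell mass, rose by 1.14 (SE 0.26, adjusted p = 0.0042) in 2i_LIF. Against LS arrays alone Nanog (0.75 in 2iSB_LIF and 0.90 in 2i_LIF) and Klf5 (0.73 in 2i_LIF) were not called, and Prdm14 was. Of all genes, 6.82% rose in 2iSB_LIF and 6.26% in 2i_LIF. Pou5f1 was called in none of the 6 comparisons.

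**Figure D5:**
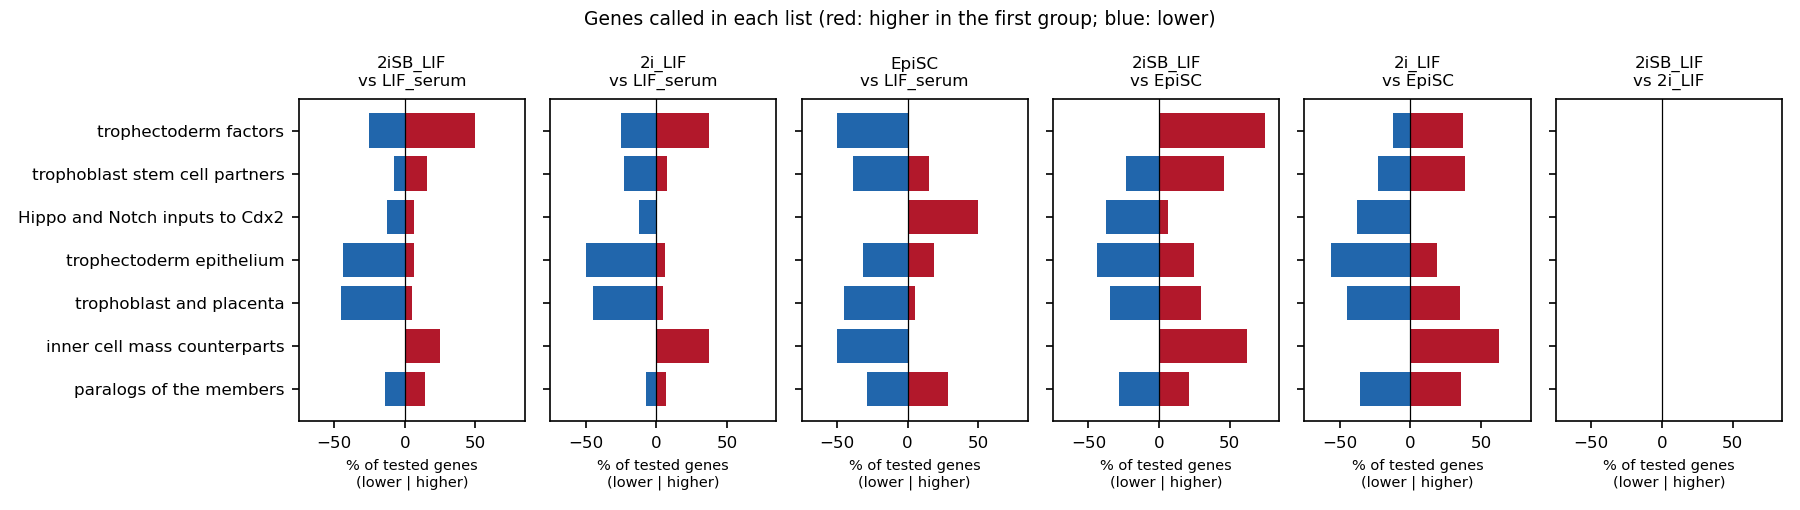
Share of the tested genes of each list called higher (red, to the right) or lower (blue, to the left) in the group named first, in percent, for the 6 comparisons. In EpiSC against LIF_serum the bar of the Hippo and Notch genes points only to the right and that of the 9 trophectoderm factors, of which 8 were tested, only to the left, and no list has a bar between 2iSB_LIF and 2i_LIF.

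Genes with patterns most like those of the members were found by the root mean square difference over the 16 arrays, each gene centred on its own mean, among 14505 candidates. This was done for members whose group means span at least 2 log2 units, which left out Tfap2a (1.82). The closest to Tead4 were Gdpgp1, Notum and Fam102a, at 0.376, 0.378 and 0.378 log2 units. The closest to Tfap2c were Oas1f, Gpr160 and Rnf125 (0.380, 0.383 and 0.407). Ascl2 was nearest to Plvap (0.473), Flvcr2 (0.486) and Pde2a (0.496), Elf5 to Hdac6 (0.443), Ptgr1 (0.484) and Fam122b (0.506), and Gata3 to Slc6a13 (0.457). For Gata2 the nearest was Synm (0.638) and for Hand1 Mfsd6l (0.878), the loosest match. These are descriptions over arrays that share groups, slides and scaling.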

How the data were processed

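Per the file headers, the authors deposited intensity values of single-colour Agilent arrays written by Feature Extraction 10.7.1.1. In the processed signal the background has been subtracted and spatial trends removed, and arrays are not normalized to each other. A second deposited file is a table of log2 values, made with limma and Feature Extraction per the submitters' processing notes. It holds the probes of all 9 genes, is normalized by a method that no source used here states, and served as an alternative. No column was left unmapped (0).

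Control spots were left out, outlier spots were treated as missing, spots of a probe were averaged, and log2 values were centred on each array's 75th percentile. Probes were named through RefSeq accessions and the GRCm38 annotation, which named 27656 of 55681 probes. The header names build mm9, so no position from the array is used. Each gene was read from its probe of highest mean signal. A model of 4 group means over 16 arrays was fitted with limma 3.58.1 (lmFit, eBayes) in R 4.3.3, with jsonlite 2.0.0 and data.table (1.17.8), and p-values were adjusted by Benjamini-Hochberg. The fit was tested on simulated data.

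The number of arrays limits precision. The members and lists were chosen with earlier results of these data known. Every member is named with its values, and other genes come from the lists or the likeness rule. Tests fixed for each comparison were run as planned, except that normexp (offset 50) used median spot and local background signals. A result for a member of the placental list is not reported here.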

Additional observations from a re-analysis of the deposited data

Results flagged for a closer look

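Among 36 groups of 4 arrays, 4 for each gene, 6 held an array that stood apart from the others by Dixon's ratio, a rule that chance alone meets in about 1 of 20 groups. Gata2 and Elf5 were low on 2i_LIF array 3, at −3.80 and −6.05, while the other 2i_LIF arrays lay between −2.23 and −1.92 for Gata2 and between −5.07 and −4.88 for Elf5. Elf5 was not well above background on any of these 4 arrays. Gata3 was low on 2iSB_LIF array 1, at −4.63, against −2.31 to −2.04 on the others. Tfap2a was low on 2i_LIF array 1, at −2.61, against −1.62 to −1.59, and high on EpiSC array 3, at −3.21, against −3.89 to −3.79. Hand1 was high on 2i_LIF array 4, at −6.08, against −7.39 to −7.22, all not well above background. None of the causes was tested.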

How the results depend on the processing

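The counts of the 8 genes called under each alternative stayed within 1.5 times those reported, except in 4 cases. Within the first slide 3 genes were called between 2i_LIF and LIF_serum, in place of 5, and 1 between 2iSB_LIF and LIF_serum, in place of 6. There each side has fewer arrays, and the genes called include Cdx2, which passed the filter through the LS arrays and is the gene called in 2iSB_LIF. With passage number as a covariate 1 was called between 2iSB_LIF and LIF_serum, in place of 6. Within the second slide, where each ground-state group has 1 array assumed to vary like the other groups, 3 were called between 2iSB_LIF and 2i_LIF, in place of 0. Leaving out each array in turn gave 4 genes called in all cases between EpiSC and LIF_serum, 5 to 7 between 2i_LIF and LIF_serum, 6 between 2iSB_LIF and LIF_serum, 0 between 2iSB_LIF and 2i_LIF, 3 to 4 between 2i_LIF and EpiSC and 4 to 6 between 2iSB_LIF and EpiSC.

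Differences that changed sign were of genes not called. Gata3 between EpiSC and LIF_serum was at −0.37 within the second slide and with only LIF_serum arrays 3 and 4. Gata2 between 2iSB_LIF and LIF_serum was at 0.73 within the first slide, 0.11 with passage number and 0.70 with only LIF_serum arrays 1 and 2, and Gata3 there was at 0.13 with only arrays 1 and 2. The causes were not tested. Of the member differences recomputed, 42 lost and 13 gained a call and 888 did neither. Holding readings below the background floor at it, an alternative added after the values were seen (as was the use of LIF_serum pairs for the other gene lists), ended 1 call, Elf5 between 2iSB_LIF and LIF_serum (0.88).

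Samples of the same line number share only a number: their deviations from the group means correlated between −0.60 and 0.40 (median −0.04, 24 pairs). With the replicate number as a block 4, 5 and 6 genes were called in EpiSC, 2i_LIF and 2iSB_LIF against LIF_serum, as without it. Without the filter on dim probes Cdx2 was tested as well, against readings below background that have no order, so its values are not given. Signal near background limits Elf5, Hand1 and Cdx2 most.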
